A study of Equus asinus with 6 samples.

Results

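Among the 20873 genes counted in donkey back muscle, 42 rows carried no symbol, only a LOC number, and a protein description naming a histocompatibility antigen, an immunoglobulin chain or the T-cell receptor. The rule reads the name and description and no expression value. By description, 19 were class I and 20 class II histocompatibility chains, 1 a class I-related protein, 1 an immunoglobulin heavy chain and 1 a T-cell receptor-associated adapter. No row described as a lambda or kappa chain met the rule, and the adapter (LOC106842174, TRAT1 in RefSeq) is not a receptor chain, so the set was in substance a histocompatibility set. RNA was taken from longissimus dorsi, a back muscle, of 24-month-old Guangling donkeys (Equus asinus). The labels place 3 libraries in a group of high intramuscular fat (IMF) and 3 in a group of low IMF, and all 6 share breed, age and tissue. Fat content itself, sex and kinship of the animals are not given in the labels. Whether each library stands for its own animal is not stated either, and every p-value here is therefore set by library-to-library spread that may be technical.

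The major histocompatibility complex is a dense cluster of genes whose products hold peptides at the cell surface for inspection by T cells. Class I heavy chains pair with beta-2-microglobulin on nearly all nucleated cells and present peptides made inside the cell to CD8 T cells. Class II molecules are pairs of an alpha and a beta chain, DR and DQ being the surface forms, and are made mainly by macrophages, dendritic cells and B cells, with DM and DO acting inside the cell when peptide is loaded. In mammals these genes are known for many near-identical copies and for great variation between individuals, in sequence and in the copies a chromosome carries. Reads from such copies can be split between rows in ways that depend on a counting step the sources here leave out, so the level of any single row is uncertain. In RefSeq (assembly EquAss-T2T_v2, used for names and gene order only) 33 of the 42 LOC numbers were found. There the DR beta row LOC106830318 lies next to the DR alpha row LOC106827315, and the DM beta row LOC106834611 lies next to PSMB9. The DQ beta row LOC106830298 is likewise next to the DQ alpha row LOC106830306.

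The libraries held 39052998 to 47494157 assigned reads in high IMF muscle and 44313770 to 46360965 in low IMF muscle. The 42 rows took 0.0696% to 0.121% of them in high IMF libraries and 0.0725% to 0.141% in low IMF libraries. All 10 muscle fibre markers looked for were listed, with summed levels of 101600 to 170100 CPM (counts per 1000000 reads of the TMM-adjusted library) in high IMF libraries and 130700 to 174200 CPM in low IMF libraries. Low IMF replicates 2 and 3 were nearly alike. Over 3700 genes with at least 20 and fewer than 200 reads in the pair, the mean chi-square per gene was 3.21, against 10 to 16.2 in the other 14 pairs of libraries and about 1 for sampling noise alone. They differed beyond sampling noise and were kept as 2 libraries, though this excess cannot show whether they come from 1 animal or 2. Counted as 1 summed library they left 15 of the 37 tested rows with groups that did not overlap, against 17.1% of all tested genes. The separate libraries left 14 such rows, against 13.0% of all tested genes.

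Levels differed widely between libraries for single histocompatibility rows while the sums over a class did not separate the groups. The summed level of the 19 class I rows was 551, 470.4 and 485 CPM in high IMF replicates 1 to 3, against 854, 464 and 428 CPM in low IMF replicates 1 to 3. The sum over the 20 class II rows was 436, 403 and 279 CPM in high IMF libraries, against 503, 359 and 347 CPM in low IMF libraries. The groups overlapped for both sums. The group means gave a class I ratio of 0.863 and a class II ratio of 0.924, high over low IMF. Low IMF replicate 1 was the highest of the 6 libraries for both classes. Without it the log2 ratio was 0.16 in place of -0.21 for class I and 0.07 in place of -0.11 for class II. In bulk muscle, fewer cells of a type and less RNA per cell cannot be told apart.

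**Figure D1:**
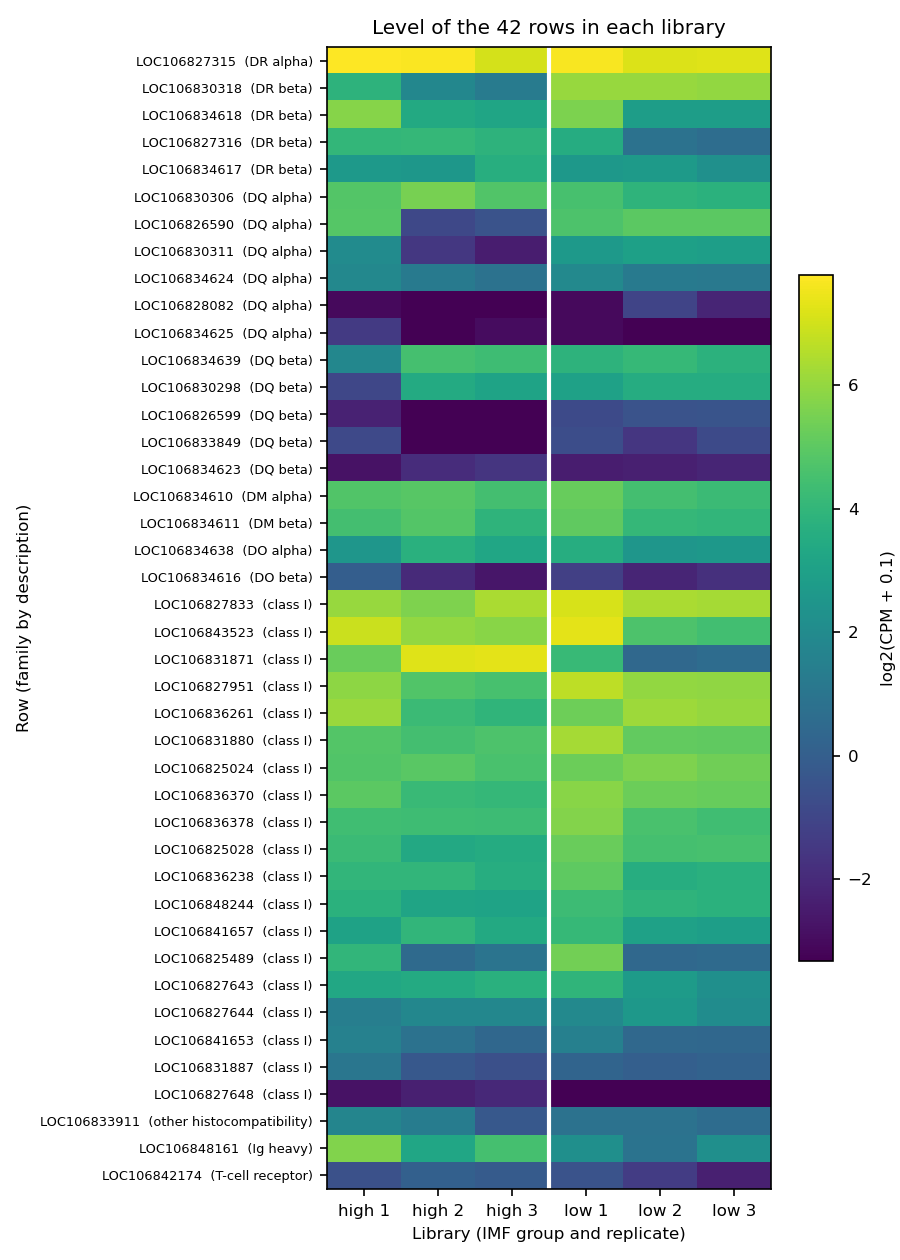
Level of each of the 42 rows in each library as log2(CPM + 0.1), with high IMF libraries left and low IMF libraries right of the white line; rows are grouped by family as described in the file and ordered by mean level. Rows such as LOC106826590 (DQ alpha) and LOC106831871 (class I) differ by several log2 units between libraries, while the DR alpha row is near the top of the scale in all 6.

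The low-count filter kept 37 of the 42 rows, 18 class I, 16 class II and the other 3. The 5 left out were the class I row LOC106827648, with 2, 5 and 5 reads in high and 0, 0 and 0 reads in low IMF libraries, the DO beta row LOC106834616, the DQ alpha rows LOC106828082 and LOC106834625, and the DQ beta row LOC106834623, none above 40 reads in a library. edgeR's quasi-likelihood test called 0 of the 37 rows at an adjusted p under 0.05, and it called 0.0% of the 15933 genes tested. At an unadjusted p under 0.05 it had 11 of the 37 rows. Of these, 3 were higher in high IMF muscle, where 4.53% of all tested genes were, and 8 were lower, where 2.74% of all were. Together the 11 rows are 29.7% of the set, against 7.27% of all tested genes, though rows that share reads are not independent of each other. The count was 7 without high IMF replicate 2, where 5.64% of all tested genes passed that limit, and 7 with library size as the only scaling, where 7.53% did. limma-voom also called 0 rows at an adjusted p under 0.05, with 15 at an unadjusted p under 0.05, where 6.97% of all tested genes were.

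The groups did not overlap for 14 of the 37 rows, or 37.8%, against 13.0% of all tested genes. In 4 of them all high IMF libraries lay above all low IMF libraries, against 6.86% of all tested genes, and in 10 all lay below, against 6.1%. DESeq2 also gave an adjusted p to 37 rows, though not the same 37, as 17 of them were class I and 17 class II. Its Wald test called 2 of these, against 1.16% of all genes with an adjusted p. They were the immunoglobulin row LOC106848161, higher in high IMF muscle, where 0.68% of all were, and the DR beta row LOC106830318, lower in high IMF muscle, where 0.477% of all were. The authors' deposited table holds the same 2 rows at an adjusted p under 0.05, against 1.15% of its genes, 0.676% being higher and 0.475% lower. It rests on the same libraries and is no separate evidence. Single libraries moved the DESeq2 count. It was 10 without high IMF replicate 1, with 9 rows lower, where 1.77% of all genes were called. It was 8 without low IMF replicate 1, with 6 rows higher, where 2.58% of all genes were called. Without high IMF replicate 1 edgeR called 2 rows, LOC106830318 and the DQ alpha row LOC106826590, both lower, among 3 genes called in all (0.0185%). In the main edgeR fit the median log2 fold of the 37 tested rows was -0.11, against 0.01 over all tested genes. It was -0.59 over the class I rows and -0.01 over the class II rows. Without low IMF replicate 1 the median of the 37 rows was 0.18, against 0.02 over all.

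**Figure D2:**
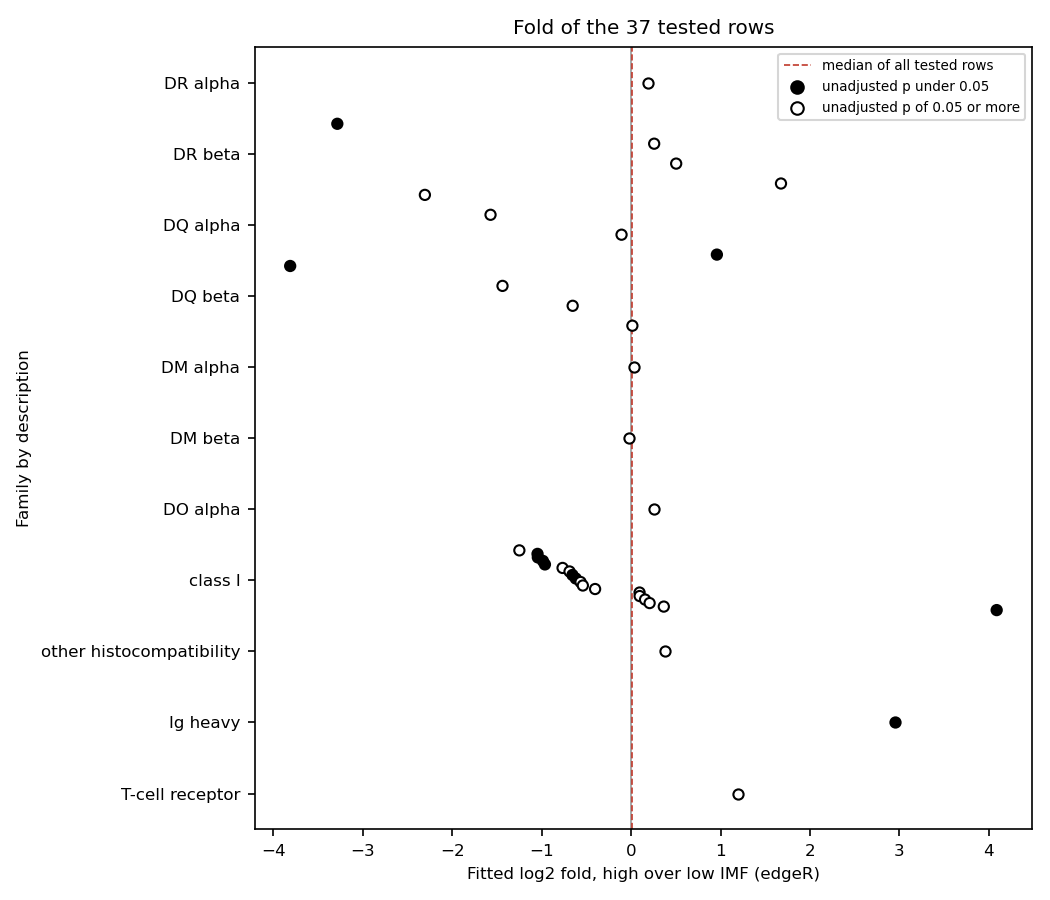
Fitted log2 fold of high over low IMF muscle for the 37 tested rows, by family, with filled points for an unadjusted p under 0.05 in edgeR; the dashed line is the median of all 15933 tested genes. Class I folds other than that of LOC106831871 (4.09) sit between -1.25 and 0.36, and the DR beta and DQ rows lie on both sides of 0.

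The DR alpha row, whose chain pairs with DR beta chains, did not separate the groups. LOC106827315 measured 220.0, 212.6 and 135.7 CPM in high IMF libraries, against 204, 147 and 149 CPM in low IMF libraries (log2 fold 0.18, edgeR adjusted p = 0.937). It was the row of highest level per length, at 158.7 FPKM (scaled by gene length and library size, as deposited) on average in high and 125.1 FPKM in low IMF muscle.

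The 4 DR beta rows behaved differently from each other. LOC106830318 measured 14.3, 3.41 and 2.38 CPM in high IMF libraries, against 67.3, 66.2 and 62.6 CPM in low IMF libraries. All 3 low libraries lay close together, and the highest high IMF library was several-fold below them. The means were 6.69 ± 6.59 CPM in high and 65.4 ± 2.43 CPM in low IMF muscle (SD, n = 3), a fitted level 9.75-fold higher in low IMF muscle. edgeR gave an adjusted p of 0.504, and 0.00934 without high IMF replicate 1, where the log2 fold was -4.5 in place of -3.29. The DESeq2 log2 fold was -3.31 ± 0.56 (SE) with an adjusted p of 4.95e-06, and the DESeq2 call held without each library in turn. The authors' deposited table gives it a log2 fold of -3.31 and an adjusted p of 5.02e-06.

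LOC106827316, another DR beta row, lay the other way. It measured 16.2, 17.0 and 14.3 CPM in high IMF libraries, against 11.6, 1.7 and 1.48 CPM in low IMF libraries, without overlap (log2 fold 1.68, edgeR adjusted p = 0.719). LOC106834618 did not follow the fat group, with 55.0, 10.7 and 9.24 CPM in high IMF libraries, against 48.4, 7.1 and 7.12 CPM in low IMF libraries (edgeR adjusted p = 0.976). Its level was thus high in replicate 1 of both groups and several-fold lower in the other 4 libraries. LOC106834617 was the steadiest, at 6.19, 5.8 and 12.3 CPM in high and 5.92, 6.57 and 4.62 CPM in low IMF libraries (edgeR adjusted p = 0.854). LOC106827316 and LOC106834617 are named here after their values were seen.

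The row that took most DR beta reads therefore differed between libraries. In high IMF replicate 1 it was LOC106834618, with 60.0% of DR beta reads (95% Wilson interval 58.5% to 61.5%). In high IMF replicates 2 and 3 it was LOC106827316, with 46.1% (43.9% to 48.3%) and 37.4% (34.8% to 40.0%). In the low IMF libraries it was LOC106830318, with 50.5%, 81.2% and 82.6%. These intervals cover counting error only. The share of LOC106830318 was 15.6%, 9.27% and 6.22% in the high IMF libraries, so the groups did not overlap for it. Summed over the 4 rows, DR beta measured 91.7, 36.8 and 38.2 CPM in high IMF libraries, against 133.3, 81.6 and 75.9 CPM in low IMF libraries, and the groups overlapped through high IMF replicate 1. The low IMF mean was 1.74 times the high IMF mean. Per length, DR beta rows summed to 0.593, 0.273 and 0.401 of the DR alpha row in high IMF libraries, against 0.811, 0.588 and 0.54 in low IMF libraries.

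**Figure D3:**
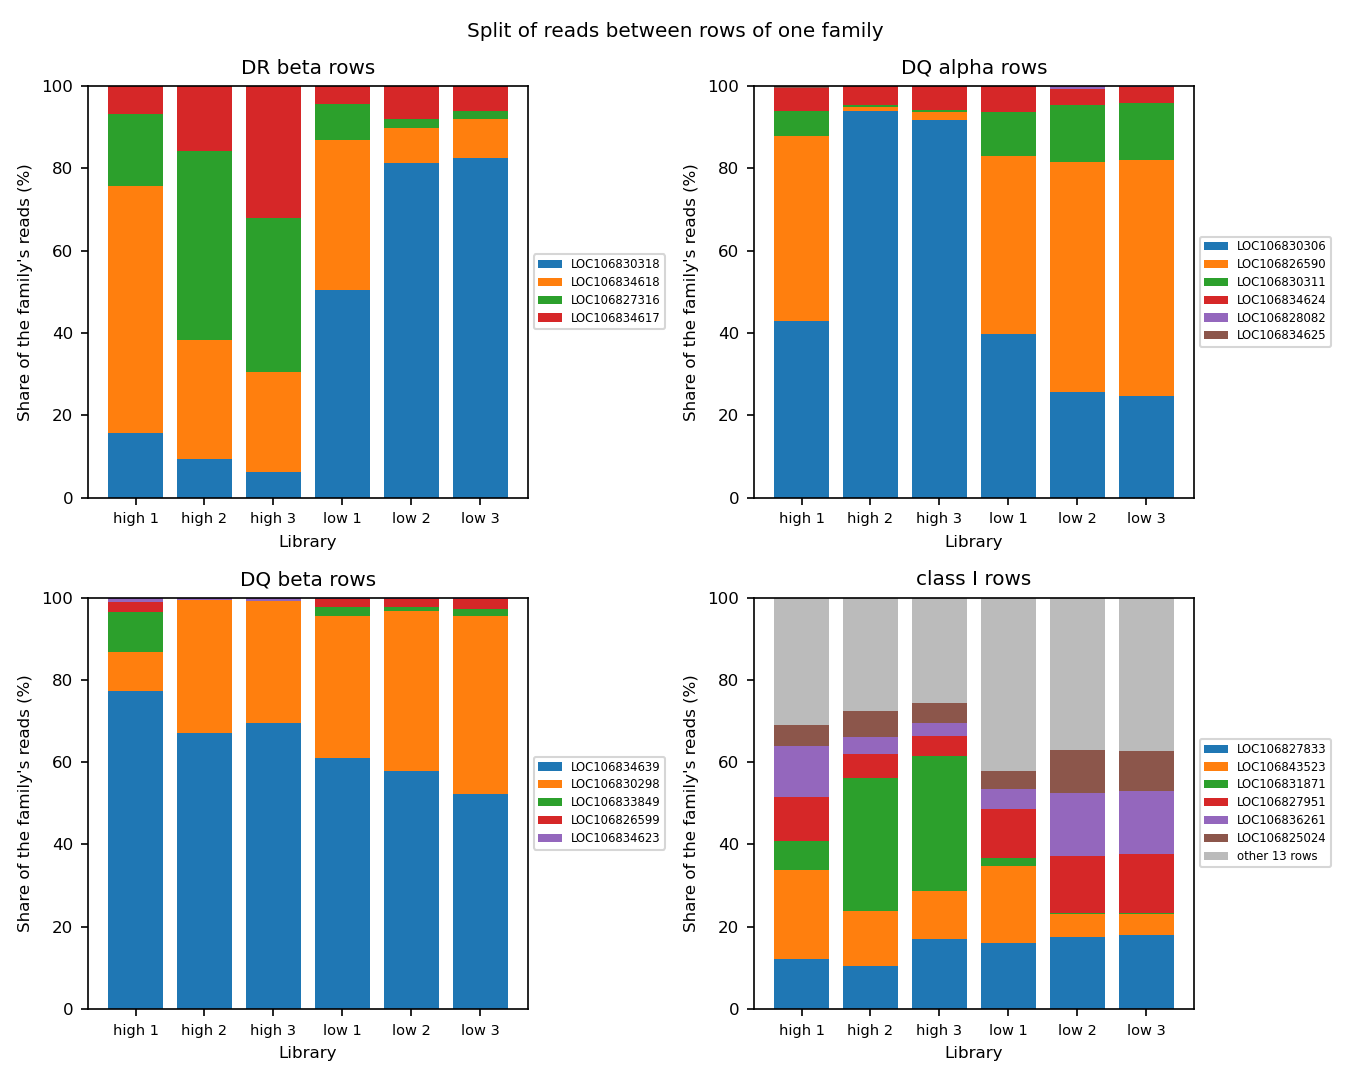
Share of each family's reads taken by each of its rows, in percent, in each library, for DR beta, DQ alpha, DQ beta and class I rows, with high IMF libraries left of low IMF libraries; for class I the 13 rows of lower share are pooled in grey. LOC106830318 takes 50.5% to 82.6% of DR beta reads in low IMF libraries and 6.22% to 15.6% in high IMF libraries, and LOC106830306 takes over 90% of DQ alpha reads in high IMF replicates 2 and 3.

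DQ alpha rows showed a near absence in part of the high IMF libraries. LOC106826590 had 1303, 23 and 21 reads in high IMF libraries, or 28.8, 0.431 and 0.608 CPM, against 1233, 1320 and 1282 reads in low IMF libraries, or 25.7, 32.0 and 31.2 CPM. Replicate 1 of high IMF was thus at the low IMF level, and high IMF replicates 2 and 3 were near 0. Neither edgeR (adjusted p = 0.893) nor DESeq2, which gave it no adjusted p, called it over all libraries. LOC106830311 had the same shape at a lower level, with 181, 13 and 3 reads in high and 302, 322 and 307 reads in low IMF libraries (edgeR adjusted p = 0.748). These rows are named after their values were seen.

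LOC106830306, also DQ alpha, lay the other way, with 27.6, 45.6 and 27.0 CPM in high IMF libraries, against 23.6, 14.6 and 13.4 CPM in low IMF libraries. The groups did not overlap, and the fitted level was 1.94-fold higher in high IMF muscle (unadjusted p = 0.0149, adjusted p = 0.551 in edgeR). It took 43.0%, 93.9% and 91.7% of DQ alpha reads in high IMF libraries, against 39.8%, 25.6% and 24.6% in low IMF libraries. The remaining DQ alpha row tested, LOC106834624, had a log2 fold of -0.11 (adjusted p = 0.975). Summed over the 6 DQ alpha rows, the level was 64.2, 48.6 and 29.5 CPM in high and 59.3, 57.1 and 54.2 CPM in low IMF libraries, with overlap.

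The more abundant DQ beta rows set high IMF replicate 1 apart in the opposite sense. LOC106834639 had 157, 1206 and 689 reads in high IMF libraries, against 692, 704 and 581 in low IMF libraries. LOC106830298 had 19, 584 and 294 reads in high IMF libraries, against 389, 475 and 481 in low IMF libraries. High IMF replicate 1 was thus the lowest of the 6 libraries for both rows, which are named after their values were seen (edgeR adjusted p = 0.998 and 0.936). The summed DQ beta level was 4.49 CPM in that library and 33.8 and 28.7 CPM in the other high IMF libraries, against 23.6, 29.5 and 27.0 CPM in low IMF libraries. Per length, DQ beta over DQ alpha was 0.069, 1.42 and 1.93 in high IMF libraries, against 0.373, 0.414 and 0.39 in low IMF libraries. The steady ratio of the low IMF libraries was therefore met by none of the high IMF libraries. LOC106826599, a DQ beta row with few reads, had 5, 0 and 0 reads in high and 22, 25 and 26 reads in low IMF libraries (log2 fold -3.81, unadjusted p = 0.00921, edgeR adjusted p = 0.523). Without high IMF replicate 1, which leaves only libraries at 0 in that group, its fitted log2 fold was -7.64, so its size is not fixed by these reads. The DQ beta row LOC106833849 had 20, 0 and 0 reads in high and 25, 10 and 19 reads in low IMF libraries. In LOC106826599 and LOC106833849 all reads of the high IMF group thus came from replicate 1, unlike in the more abundant DQ beta rows.

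DM and DO act in peptide loading, and 3 of their 4 chains were tested. DM alpha (LOC106834610) measured 27.4, 29.9 and 22.2 CPM in high IMF libraries, against 37.0, 21.7 and 18.9 CPM in low IMF libraries (edgeR adjusted p = 0.99). DM beta (LOC106834611) measured 21.6 ± 6.51 CPM in high and 22.0 ± 9.68 CPM in low IMF muscle (SD, n = 3), and DO alpha (LOC106834638) 9.31 ± 3.78 and 7.79 ± 3.59 CPM. The highest and lowest libraries of these 3 rows differed 1.96-, 2.22- and 2.37-fold. The DO beta row LOC106834616, below the filter, had 40, 8 and 2 reads in high and 16, 5 and 8 reads in low IMF libraries, and its libraries differed 11.5-fold. Of the other genes of class II presentation, 12 of the 13 looked for were tested. At an unadjusted p under 0.05 none was higher and 1, RFXAP, was lower, where 2.74% of all tested genes were. RFXAP, a subunit of the factor that binds class II promoters, measured 13.2, 14.1 and 21.6 CPM in high IMF libraries, against 38.4, 32.2 and 30.1 CPM in low IMF libraries, without overlap (adjusted p = 0.504 in edgeR and 0.0248 in DESeq2). The class II transactivator CIITA measured 20.1 ± 4.06 CPM in high and 18.5 ± 7.85 CPM in low IMF muscle, and the invariant chain CD74, which escorts class II molecules, 896 ± 52.2 and 941 ± 259 CPM. The macrophage and dendritic cell list, 20 of 20 markers listed, summed to 367, 174.5 and 73.4 CPM in high IMF libraries, against 107.1, 104.1 and 102.1 CPM in low IMF libraries. CLEC9A and CD1D were at 0 in at least 1 library. High IMF replicate 3 thus lay below every low IMF library, and 17 of the 20 markers were highest in high IMF replicate 1. Of the list's 18 tested markers 16 had a positive log2 fold, and the median log2 fold was 1.23. At an unadjusted p under 0.05 in edgeR 6 were higher, where 4.53% of all tested genes were, and none was lower. DESeq2 called 1 of the 18 after adjustment. The part of these cells in the class II levels was not tested.

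**Figure D4:**
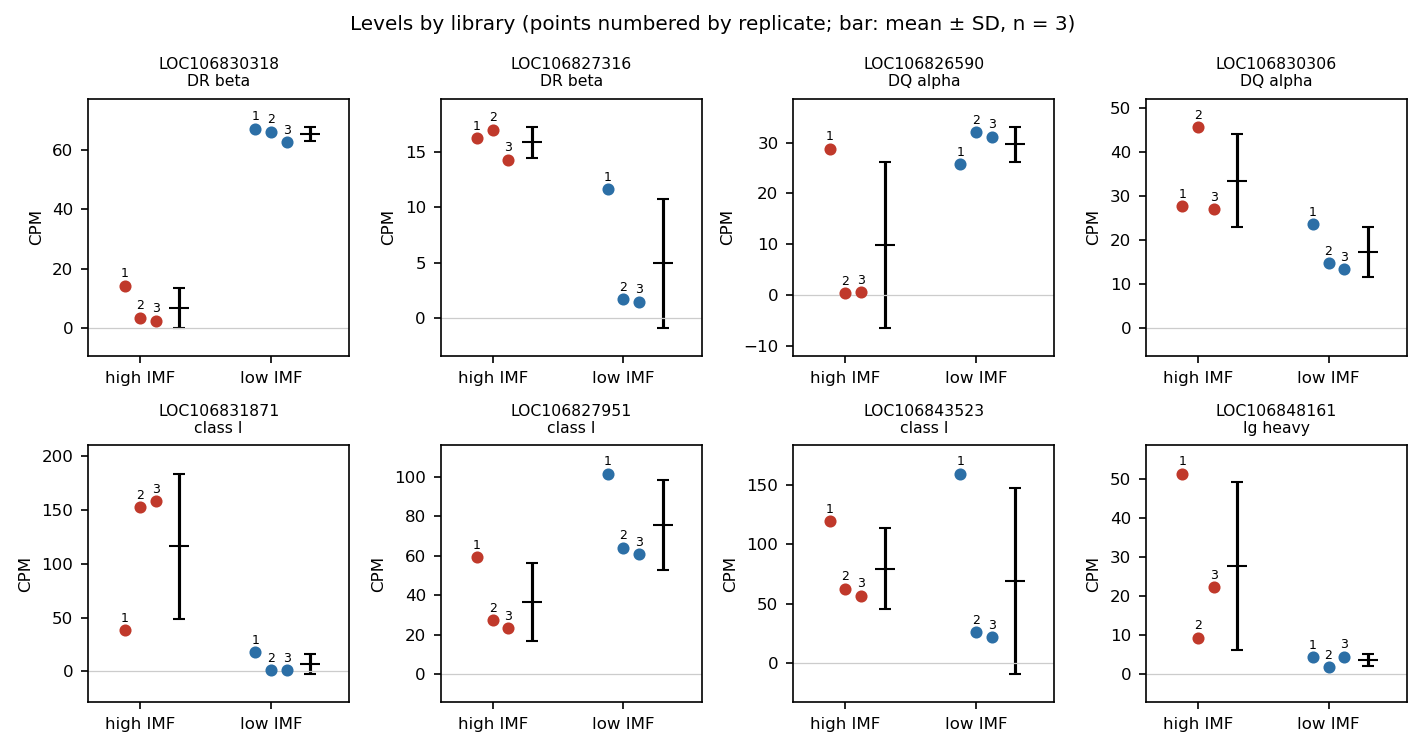
Level in CPM of 8 rows in each library, with high IMF libraries left of low IMF libraries, points numbered by replicate and the black bar giving the mean ± SD (n = 3). LOC106830318 separates the groups with low IMF libraries at 62.6 to 67.3 CPM, whereas LOC106826590 has 1 high IMF library at the low IMF level and 2 near 0.

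Class I rows mostly had lower fitted levels in high IMF muscle, with 1 large exception, and none passed the adjusted test. Of the 18 rows tested, 12 had a negative log2 fold (-1.25 to -0.4), where 48.8% of all tested genes had one. At an unadjusted p under 0.05, 6 rows were lower, 1.54- to 2.07-fold, and 1 was higher, where 2.74% and 4.53% of all tested genes were. Of the 6, 3 stayed below that limit when replicate 2 or replicate 3 of high IMF was left out, 4 when replicate 1 of low IMF was, and 2 with library size as the only scaling, LOC106825024 and LOC106825028 each time. The 6 were LOC106825024, LOC106825028, LOC106827951, LOC106831880, LOC106836370 and LOC106848244, and in each all high IMF libraries lay below all low IMF libraries. LOC106825024 measured 27.3, 30.4 and 24.1 CPM in high IMF libraries, against 38.6, 48.9 and 41.5 CPM in low IMF libraries (1.58-fold higher in low, edgeR adjusted p = 0.51). LOC106825028 measured 19.1, 10.4 and 11.2 CPM in high, against 38.1, 22.9 and 23.1 CPM in low IMF libraries (2.07-fold, adjusted p = 0.527). In both rows the groups stood apart by less than a doubling at their nearest libraries.

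LOC106827951 measured 36.6 ± 19.6 CPM in high and 75.5 ± 22.6 CPM in low IMF muscle (SD, n = 3), LOC106836370 22.2 ± 8.33 and 43.9 ± 10.6 CPM, and LOC106848244 10.4 ± 2.78 and 15.9 ± 3.14 CPM. In LOC106827951 and LOC106848244 the groups nearly touched. High IMF replicate 1 and low IMF replicate 3 measured 59.1 and 60.9 CPM in the first, and 13.57 and 13.64 CPM in the second. LOC106831880 measured 27.6, 22.0 and 25.5 CPM in high IMF libraries, against 79.1, 34.5 and 33.0 CPM in low IMF libraries. Low IMF replicate 1 was more than 2-fold above the other low libraries there, and it was the highest library for 12 of the 18 class I rows. High IMF replicate 3 was the lowest for 8 of them. An endothelial marker list was set beside these rows. Of its 10 genes, all tested, 9 had a negative log2 fold, where 48.8% of all tested genes had one, and the median was -0.475. At an unadjusted p under 0.05 in edgeR 3 (FLT1, CLDN5 and ESAM) were lower, where 2.74% of all tested genes were. After adjustment DESeq2 called 1 of them, FLT1. The list summed to 983, 822 and 528 CPM in high IMF libraries, against 1157, 1003 and 1016 CPM in low IMF libraries. It was highest in low IMF replicate 1, as was the class I sum. All 10 endothelial genes were lowest in high IMF replicate 3. The class I sum was instead lowest in low IMF replicate 3, at 428 CPM, against 485 CPM in high IMF replicate 3. No endothelial marker was at 0 in a library, and the part of these cells in the class I levels was not tested.

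LOC106831871 was the exception. It had 1729, 8130 and 5466 reads in high IMF libraries, or 38.2, 152.5 and 158.3 CPM, against 853, 51 and 59 reads in low IMF libraries, or 17.8, 1.24 and 1.43 CPM. The groups did not overlap, and the fitted level was 17-fold higher in high IMF muscle. It did not pass in edgeR (unadjusted p = 0.00914, adjusted p = 0.523) or in DESeq2 (log2 fold 4.09 ± 1.26 SE, adjusted p = 0.0783). Without low IMF replicate 1 the log2 fold was 6.43, and the row then passed in DESeq2. It took 6.93%, 32.4% and 32.7% of class I reads in high IMF libraries, against 2.08%, 0.267% and 0.335% in low IMF libraries. The other 18 class I rows, a sum chosen after the values were seen, measured 513, 318 and 326 CPM in high and 837, 463 and 426 CPM in low IMF libraries, with overlap through high IMF replicate 1.

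Other abundant class I rows varied between libraries across the fat groups. LOC106843523 measured 119, 62.7 and 56.7 CPM in high IMF libraries, against 159.7, 25.8 and 21.4 CPM in low IMF libraries (edgeR adjusted p = 0.976). LOC106836261 measured 69.7, 18.9 and 15.5 CPM in high IMF libraries, against 40.5, 70.8 and 65.9 CPM in low IMF libraries (adjusted p = 0.868). LOC106827833 measured 67.5, 49.3 and 83.0 CPM in high IMF libraries, against 136.6, 81.7 and 77.5 CPM in low IMF libraries (adjusted p = 0.756). LOC106825489, named after its values were seen, had 713, 72 and 63 reads in high and 2037, 52 and 54 reads in low IMF libraries. It was abundant in replicate 1 of both groups and low in the other 4 libraries, the shape also seen for the DR beta row LOC106834618. The other 7 class I rows tested (LOC106827643, LOC106827644, LOC106831887, LOC106836238, LOC106836378, LOC106841653 and LOC106841657) had log2 folds of -0.69 to 0.36 and unadjusted p-values of 0.0862 or more, and their highest and lowest libraries differed 2.3- to 3.57-fold. The class I-related row LOC106833911 measured 3.18, 2.4 and 0.724 CPM in high and 1.71, 1.72 and 1.43 CPM in low IMF libraries (adjusted p = 0.937).

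Genes that build class I molecules gave no calls. All 15 looked for were tested, 6 had a positive log2 fold, none had an unadjusted p under 0.05 and the median log2 fold was -0.12. B2M, which encodes beta-2-microglobulin, measured 514, 440 and 360.1 CPM in high IMF libraries, against 714, 489 and 469 CPM in low IMF libraries. NLRC5, the transactivator of class I genes, measured 28.9, 30.0 and 23.5 CPM in high and 54.1, 31.0 and 29.4 CPM in low IMF libraries, and the peptide transporter TAP1 24.7, 25.0 and 18.2 CPM in high and 21.7, 17.9 and 15.1 CPM in low IMF libraries. Low IMF replicate 1, the highest library of the class I sum, was the highest for 9 of the 15 genes, B2M and NLRC5 among them, and not for TAP1. The 15 genes summed to 1096, 1097 and 932 CPM in high IMF libraries, against 1454, 1060 and 1026 CPM in low IMF libraries.

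The immunoglobulin row stood apart from the histocompatibility rows. LOC106848161 measured 51.5, 9.38 and 22.4 CPM in high IMF libraries, against 4.46, 1.77 and 4.5 CPM in low IMF libraries. All high IMF libraries lay above all low IMF libraries, and the means were 27.7 ± 21.6 CPM in high and 3.58 ± 1.56 CPM in low IMF muscle (SD, n = 3), a fitted 7.74-fold difference. edgeR gave an adjusted p of 0.51. DESeq2 gave a log2 fold of 2.94 ± 0.57 (SE) with an adjusted p of 0.000184, and 0.00711 without high IMF replicate 1, where the log2 fold was 2.14. The DESeq2 call held without each library in turn, with adjusted p-values up to 0.0163. The authors' deposited table gives a log2 fold of 2.94 and an adjusted p of 0.000186. The row's annotations disagree on the chain. The protein description names a heavy chain. The Swiss-Prot match names an Ig lambda chain constant region, and the KEGG entry names immunoglobulin lambda-like polypeptide 1. RefSeq lists the gene as a constant region. More of these annotations thus name lambda than heavy, though the chain stays unsettled.

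Of 22 B cell and plasma cell markers, 21 were listed and 17 tested, and BLK, POU2AF1, TNFRSF13B and DERL3 were at 0 in at least 1 library. They summed to 65.3 to 90.7 CPM in high IMF libraries and 53.95 to 63.2 CPM in low IMF libraries. The largest share came from XBP1, a transcription factor of secretory cells that is not confined to plasma cells, with 48.9, 35.5 and 38.7 CPM in high and 31.0, 30.3 and 33.2 CPM in low IMF libraries. Without it the list summed to 26.6 to 41.9 CPM in high and 23.6 to 32.1 CPM in low IMF libraries. At an unadjusted p under 0.05, 1 was higher, where 4.53% of all tested genes were, and none was lower. That gene, MZB1, a chaperone of antibody-secreting cells, measured 0.331, 3.49 and 1.48 CPM in high IMF libraries, against 0.208, 0.267 and 0.268 CPM in low IMF libraries (adjusted p = 0.523 in edgeR and 0.044 in DESeq2). It was lowest of the high IMF libraries in replicate 1, where the immunoglobulin row was highest. JCHAIN, which links antibody units, measured 16.3, 3.34 and 5.53 CPM in high and 3.5, 5.02 and 4.4 CPM in low IMF libraries. It ordered the high IMF libraries as the immunoglobulin row did, though its groups overlapped. CD79A of the B cell receptor measured 0.597, 0.694 and 0.55 CPM in high and 1.17, 0.34 and 0.122 CPM in low IMF libraries, and was highest of the high IMF libraries in replicate 2. High IMF replicate 1 also had the highest level of haemoglobin gene HBA1, at 14.0 CPM, against 1.2 and 1.91 CPM in the other high IMF libraries and 0.389 to 2.38 CPM in low IMF libraries. Of 7 erythroid markers looked for, 4 were listed and only HBA1 was tested. The others, ALAS2, SLC4A1 and AHSP, were at 0 in at least 1 library and did not move together. ALAS2 had 14 reads in high IMF replicate 1 and 0 elsewhere. SLC4A1 had 0 reads there and 7 and 4 in high IMF replicates 2 and 3. The pan-leukocyte list, 10 of 10 markers listed, summed to 81.6 to 159.2 CPM in high IMF libraries and 50.3 to 87.2 CPM in low IMF libraries. At an unadjusted p under 0.05 in edgeR 8 of the 10 were higher, where 4.53% of all tested genes were, and none was lower. After adjustment edgeR called 0 of them and DESeq2 3 (CD53, LCP1 and RAC2), against 1.16% of all genes with an adjusted p in DESeq2. The part of these cells in the level of the immunoglobulin row was not tested.

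TRAT1 (LOC106842174), an adapter that stabilizes the T-cell receptor complex, measured 0.574, 0.957 and 0.811 CPM in high IMF libraries, against 0.625, 0.291 and 0.0973 CPM in low IMF libraries (log2 fold 1.19, edgeR adjusted p = 0.81), with overlap through low IMF replicate 1. The T cell and NK cell list, which holds TRAT1, had 22 of 23 markers listed and summed to 38.3 to 72.9 CPM in high IMF libraries and 18.6 to 40.4 CPM in low IMF libraries, with CD5 at 0 in at least 1 library. Of its 20 tested members 7 had an unadjusted p under 0.05 in edgeR, all higher in high IMF muscle, where 4.53% of all tested genes were. After adjustment edgeR and DESeq2 each called 0 of the 20. CD3E, a chain of the receptor complex, measured 3.29, 1.56 and 2.0 CPM in high and 1.77, 0.412 and 0.292 CPM in low IMF libraries.

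Across the set, 11 of the 37 tested rows differed at least 8-fold between their highest and lowest library, against 8.05% of all tested genes, 2 of them class I and 7 class II. This limit was chosen after the values were seen, and a library below 3 reads was counted at 3 reads. Among the high IMF libraries alone 4 rows differed that much, against 3.46% of all tested genes, and among the low IMF libraries 2 rows did, against 2.44%. Pairs of libraries showed where these differences lay. High IMF replicates 2 and 3 had a median absolute difference of 0.36 over the 37 rows on the log2(CPM + 0.1) scale, equal to that over all tested genes (0.36), and no row at least 8-fold apart. High IMF replicate 1 differed from them by medians of 0.8 and 0.97, against 0.32 and 0.49 over all tested genes, with 4 rows at least 8-fold apart in each pair. Low IMF replicates 2 and 3 had a median difference of 0.13, against 0.12 over all tested genes. Low IMF replicate 1 differed from both of them by a median of 0.74, against 0.39 over all tested genes, with 2 rows at least 8-fold apart. Between the groups the medians ran from 0.61 to 1.14 over the 37 rows and from 0.29 to 0.45 over all tested genes. Within each group the set thus put replicates 2 and 3 together and replicate 1 apart, a description of 6 libraries that carries no test.

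**Figure D5:**
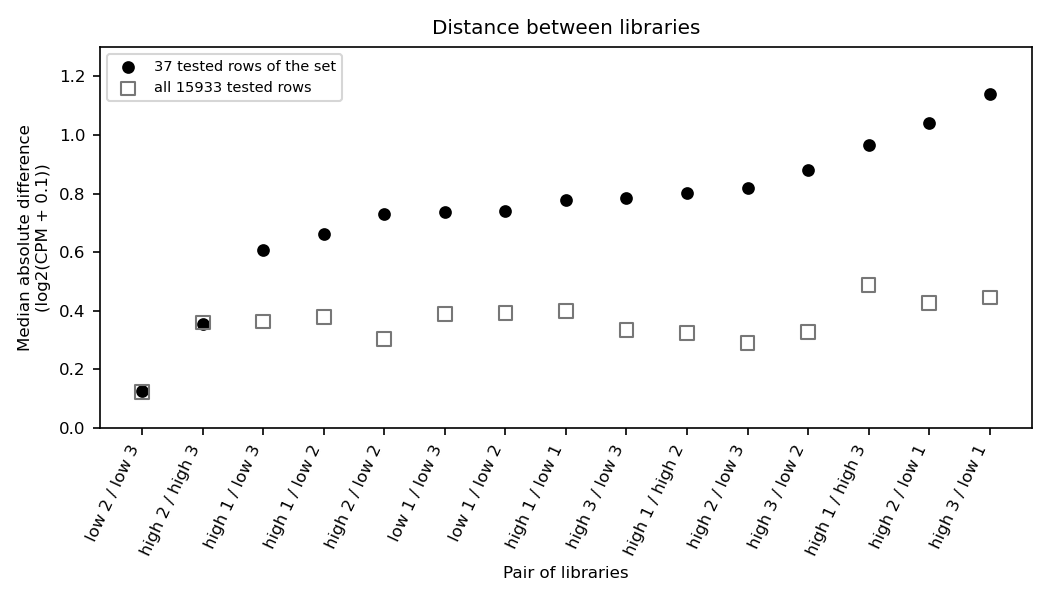
Median absolute difference between 2 libraries on the log2(CPM + 0.1) scale, for each of the 15 pairs, over the 37 tested rows of the set (filled circles) and over all 15933 tested genes (open squares). The pairs low 2 with low 3 and high 2 with high 3 have the smallest differences over the set, 0.13 and 0.36, and lie near the level of all genes, while the other 13 pairs lie above it.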

How the data were processed

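The deposited values are raw read counts for each gene; per the submitters' processing notes the aligner was HISAT2 and the build mm9, a mouse build, although the table's names and descriptions are of donkey and horse genes. The counter, its annotation and its treatment of strand and shared reads are not given in the sources, so coordinates are left out. The FPKM values are as deposited and entered no test. The deposited log2 fold, its ratio form (fold change) and the deposited p-values are the authors' own comparison of high over low IMF. Counts in the per-sample files equalled the series' table (0 cells differed).

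Counts of all 20873 genes were fitted in edgeR 4.0.16 (R 4.3.3; TMM, filterByExpr, quasi-likelihood test, Benjamini-Hochberg over 15933 genes holding 99.96% of reads, threshold 0.05). Alternatives were DESeq2 1.42.0, limma-voom 3.58.1, other scalings and filters, a replicate block and omission of each library. A count of 0 allows up to 3 reads, or 0.0632 to 0.0768 CPM, at 95% confidence for counting error only. Members and lists were chosen with earlier results of these data known. Rows named are, per class, the 5 of highest CPM, the 3 of smallest p and all with an unadjusted edgeR p or a DESeq2 or authors' adjusted p under 0.05 (19 rows), and others where said; of other genes, the list members of smallest p and a fixed set.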

Additional observations from a re-analysis of the deposited data

How the results depend on the processing

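The number of rows called was 0 in edgeR with TMM and also 0 with DESeq2 size factors, library size only, no filter, the stricter filter, limma-voom, low IMF replicates 2 and 3 summed and the replicate block. It was 0 to 2 over fits that left out 1 library, against 0.0% to 0.0185% of all tested genes. DESeq2 called 2 rows, 2 with low IMF replicates 2 and 3 summed and 2 to 10 without 1 library (10 with high IMF replicate 1 left out, 8 with low IMF replicate 1 left out). Of all genes with an adjusted p it called 1.16%, 0.428% and 0.357% to 3.64%. The 3.64% came without high IMF replicate 3, where the 2 rows were 5.0% of the rows of the set with an adjusted p. The DESeq2 runs without a library or with libraries summed were chosen after seeing the data, as was the class I sum without LOC106831871. Rows at an unadjusted p under 0.05 numbered 11, 7 with library size only, 14 with the replicate block and 7 to 16 without 1 library, against 7.27%, 7.53%, 7.45% and 4.32% to 12.5% of all tested genes. The labels do not say whether replicate numbers pair the libraries. Correlations of deviations over all tested genes were 0.202, 0.158 and 0.0235 for same-numbered libraries. For different-numbered libraries they ran from -0.22 to 0.212, so these values cannot decide it. Rows whose groups did not overlap numbered 14, 9 with library size only, where 5 were higher and 4 lower, and 14 to 23 without 1 library, against 13.0%, 13.1% and 16.8% to 31.3% of all tested genes. The median log2 fold of -0.11 was 0.051 when scaled by library size, a scaling that put the median of all tested genes at 0.15 in place of 0.01, and ran from -0.44 to 0.18 without 1 library. The class II sum, log2 ratio -0.11, was 0.043 with library size only and -0.255 to 0.066 without 1 library; the class I sum ran from -0.396 to 0.16, the summed class I-related level from -0.059 to 0.78 and the DQ beta sum from -0.71 to 0.21. With low IMF replicates 2 and 3 summed the log2 fold was -0.12 for LOC106834610, -0.15 for LOC106834618 and -0.21 for LOC106843523, against 0.03, 0.26 and 0.21 with the libraries kept separate. Without 1 library these folds ran from -0.15 to 0.374, -1.09 to 1.8 and -0.22 to 1.75, and that of LOC106833911 from -0.0485 to 0.78. The other 15 named rows kept their direction under every alternative run. The cause of these changes was not tested. Depth limits the rows with few reads, such as LOC106826599.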
